A study of Mus musculus with 2 samples.

Results

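The 50 protein-coding genes described here are the proteasome genes of the mouse, taken as those whose names begin with Psma, Psmb, Psmc, Psmd, Psme, Psmf or Psmg among 21938 protein-coding genes of the GENCODE M21 annotation (mm10). By known role they were 14 genes of the 20S core, 3 of the immunoproteasome, 2 tissue-specific core genes, 6 ATPases and 11 other subunits of the 19S cap, 7 assembly factors, and 6 activators and inhibitors. The name rule also took Psmc3ip, a cofactor of meiotic recombination that is not a proteasome subunit.

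The proteasome is the barrel-shaped protease that degrades proteins tagged with ubiquitin in the cytosol and the nucleus. Its 20S core stacks rings of alpha subunits, which form the gates, on rings of beta subunits, which hold the protease sites inside. The 19S cap binds the ubiquitin chain, removes it and threads the unfolded protein into the core, and in neurons the particle takes part in turnover of synaptic proteins. When proteasome activity is short, the factor Nfe2l1 raises transcription of its subunits through antioxidant response elements, and interferon induces a variant core, the immunoproteasome, that shapes peptides for antigen presentation.

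The assay was DNase-seq, which sequences the ends that DNase I leaves where chromatin is open. There was 1 group, left cerebral cortex of female mice of the B6CASTF1/J hybrid cross aged 18 to 20 months, with no treatment given in the labels. Its 2 libraries, called library 1 and library 2 after their biological replicate numbers, share a donor identifier, and the labels do not say whether they came from separate animals. The spread between them may therefore be technical, means are given with their SD over both (n = 2), and the design implies no comparison of conditions. Each gene was measured by its promoter signal, the authors' signal value of the strongest peak that overlaps the 500 bases on either side of any annotated start, or 0 where no peak did. The main start was taken as that of the principal protein-coding transcript, and the main window reached 500 bases to either side of it. Bulk tissue gives a mean over its cells, so fewer cells with an open promoter and less opening per cell cannot be told apart. The longer peak lists held 132054 peaks in library 1 and 139799 in library 2. The depth of sequencing is unknown, as no read number was given. The 5 marker genes of cortical excitatory neurons and all 3 each of inhibitory neurons and astrocytes had promoter peaks in both libraries. Among oligodendrocyte and microglia markers this held for 1 of 3 each, Mbp and Aif1, and for 0 of 5 markers of other organs.

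Nearly all proteasome genes had an open promoter in the aged cortex. A promoter peak was present in both libraries in 47 of 50 proteasome genes, or 94% (exact binomial 95% interval 83.5 to 98.7%, for the counting of genes only), where the background over all protein-coding genes was 63.6%. By library the counts were 47 in library 1 and 48 in library 2, beside 64.5% and 66.5% of all protein-coding genes. All 78 cytosolic and all 78 mitochondrial ribosomal protein genes, which are other broadly expressed families, had one. The proteasome genes without a peak in both were Psma8, a core alpha subunit of the testis, Psmb11, the catalytic subunit of the thymus, and Psme2b, named as a relative of the activator gene Psme2. Psma8 and Psme2b had neither a peak nor a footprint in either library. Psmb11 had no peak in library 1 and a peak of 0.623 with 4 footprints in library 2, centred 184.5 bases upstream of its start.

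The promoter signal of the 47 open proteasome genes had a median of 4.30 ± 0.167, with 4.19 in library 1 and 4.42 in library 2. The same median over all protein-coding genes with a peak in both libraries was 3.30 ± 0.244, with 3.13 and 3.47. The gap between the medians was larger than the difference between the libraries in either set. Genes are not replicates and no test was made of it. Cytosolic ribosomal protein genes stood higher, at 5.20 ± 0.0997, and mitochondrial ones at 4.05 ± 0.358. Of the 50 proteasome genes, 33 lay above the median of all open genes, which 31.8% of all protein-coding genes did. Of the 50, 26 lay in the highest 25% of all genes and 8 in the highest 10%. The open proteasome promoters ranged between 1.17 and 9.24 in library 1 and between 1.37 and 8.13 in library 2. Any annotated start counted, and starts were more numerous at proteasome genes, with a median of 5 beside 3 over all protein-coding genes. More windows were thus searched per gene, and the part of this in the differences from the backgrounds was not tested.

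**Figure D1:**
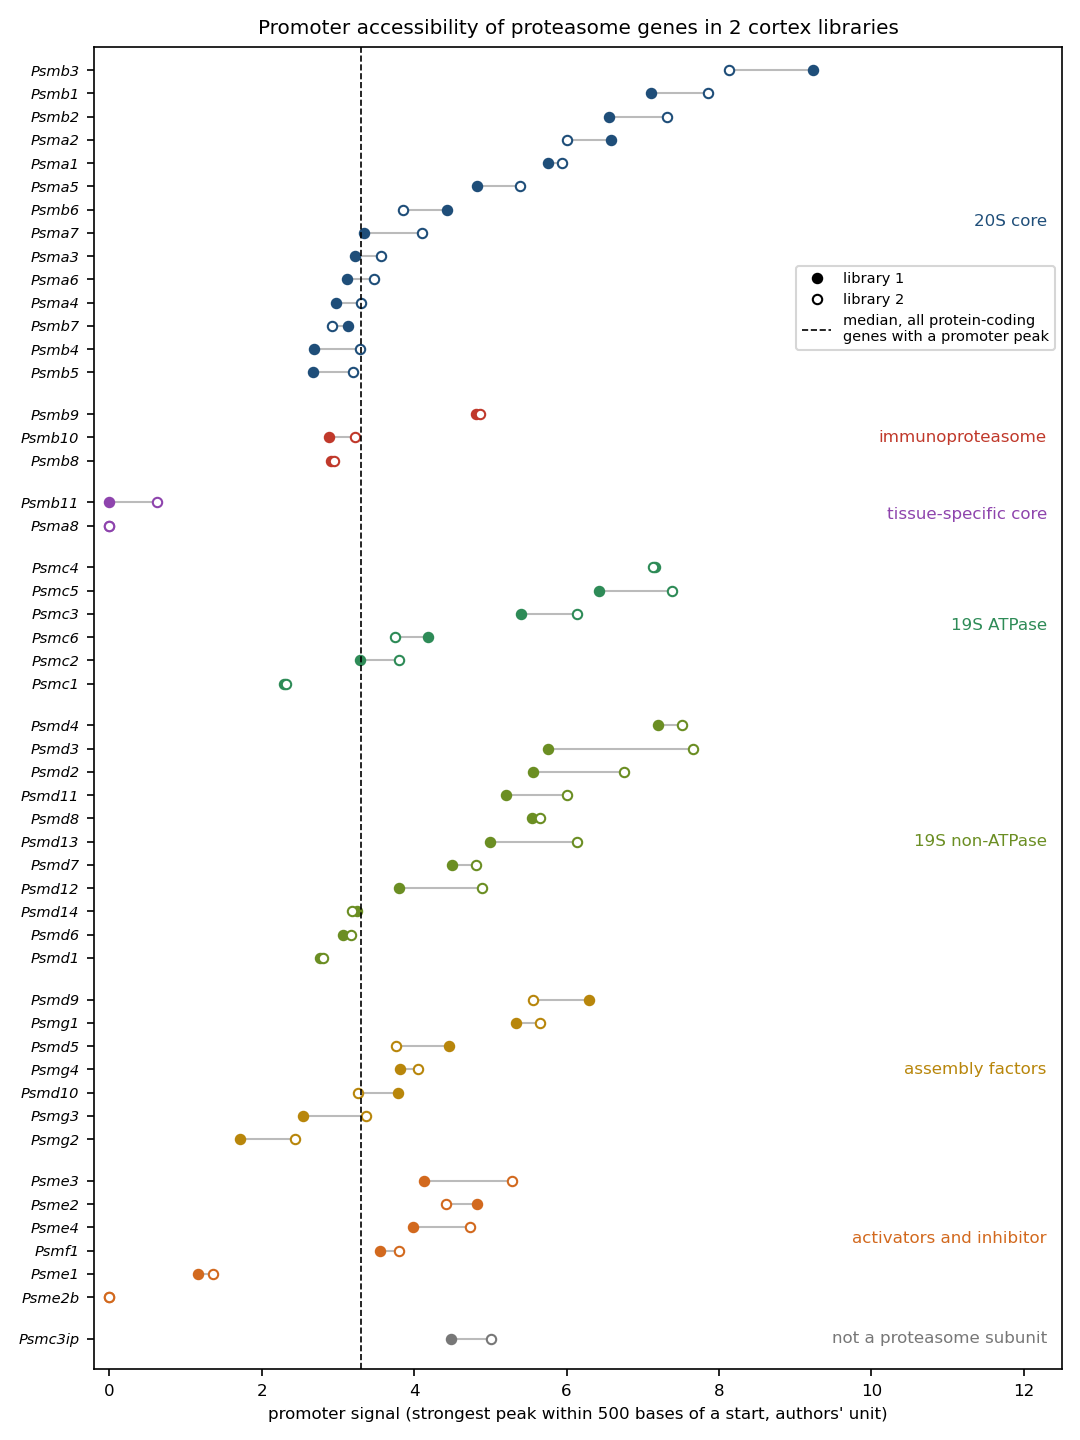
Promoter signal (authors' unit, horizontal axis) of each of the 50 proteasome genes by particle, with library 1 filled and library 2 open, joined by a line. The dashed line marks the median over all open protein-coding genes, 3.30, and most genes of the 19S cap lie to its right, while Psma8 and Psme2b sit at 0 in both libraries.

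In the 20S core all 14 genes were open, with a median signal of 3.94 ± 0.0641, and the beta ring held both the highest and the lowest of them. Psmb3, a beta subunit without a protease site, was the strongest proteasome promoter, with 9.24 in library 1 and 8.13 in library 2, and stood at rank 388 of all protein-coding genes. Psmb1 and Psmb2, likewise without protease sites, had 7.11 and 7.86, and 6.56 and 7.32. The strongest peak of Psmb1 lay outside its main window, and its peak across the main start had 5.21 and 5.27. Of the subunits with a protease site, Psmb6 (caspase-like) had 4.44 and 3.86, Psmb7 (trypsin-like) 3.13 and 2.93, and Psmb5 (chymotrypsin-like) 2.67 and 3.19. The last beta gene, Psmb4, had 2.68 and 3.29. The ranges of Psmb3, Psmb1 and Psmb2 over the libraries lay wholly above those of Psmb6, Psmb7, Psmb5 and Psmb4, while those of Psmb7, Psmb5 and Psmb4 overlapped.

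Of the alpha subunits, which gate the core and dock the caps, Psma2 had 6.59 in library 1 and 6.01 in library 2, Psma1 5.76 and 5.94, and Psma5 4.83 and 5.40. Psma7 had 3.35 and 4.11, Psma3 3.22 and 3.56, Psma6 3.12 and 3.48, and Psma4 2.97 and 3.31. Psma1 and Psma2 exceeded the other 5 in both libraries, and neighbours in the order from Psma7 down to Psma4 overlapped in their ranges. All subunits of the core are built into the particle in equal number, and their promoter signals were not equal.

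The immunoproteasome genes were open as well. Psmb9, which takes the place of Psmb6 in the induced core, had 4.81 in library 1 and 4.87 in library 2. Psmb8, the counterpart of Psmb5, had 2.91 and 2.95, and Psmb10, the counterpart of Psmb7, had 2.88 and 3.22. The inducible gene was thus above its constitutive counterpart in both libraries only for Psmb9 over Psmb6, and the other pairs overlapped. The median of the 3 was 3.06 ± 0.221, and 4.84 when all peaks of a window were summed, where the 20S core had 4.81, so that the core was then no longer above the immunoproteasome. For Psmb10 the strongest peak lay inside the gene, 1313.5 bases downstream of the main start in library 1 and 1343.5 in library 2, near starts of its other transcripts and within the overlapping gene Gm16156. When only starts of protein-coding transcripts were used, the mean signal of Psmb10 was 0.879. Psmb8 and Psmb9 lie 10026 bases apart on chromosome 17, and the peak of Psmb9 is the same as that of Tap1, a peptide transporter of antigen presentation whose start is 30 bases from the main start of Psmb9 on the other strand. That peak was centred 333.5 bases inside Psmb9.

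**Figure D2:**
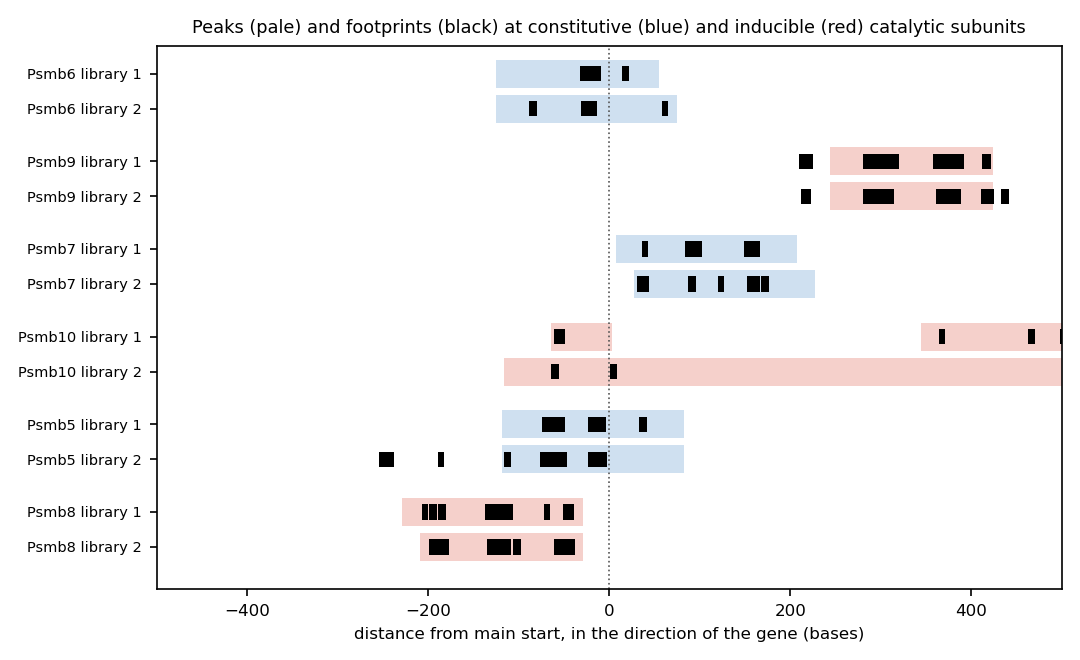
Peaks (pale bars) and footprints (black bars) in each library from 500 bases upstream to 500 bases downstream of the main start (0, horizontal axis, in bases) for the constitutive protease subunits (blue) and their inducible counterparts (red). Psmb5 and Psmb6 have a peak across the start, the peak of Psmb8 lies upstream of it and those of Psmb7 and Psmb9 lie downstream, and the strongest peak of Psmb10 lies outside the plotted range.

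Within open stretches, short protected runs, called footprints, mark where a bound protein shields the DNA from DNase I. The deposited footprints pass a false discovery rate of 0.01. The following stretches upstream of the main start are shown because they carry a strong signal and long footprints (Psmb3 and Psmb2), a protease subunit with its inducible counterpart (Psmb5 and Psmb8), an inducible gene with little signal at its start (Psmb10), or an antioxidant response element in a footprint (Psmb5 and Psmd9). Psmb2, Psmb3 and Psmb8 were chosen for display after their values were seen. They are mm10 reference sequence (C57BL/6J), written 5′ to 3′ on the strand of the gene and free of annotated exons, and the cross also carries a CAST copy not shown. Each ends at the base before the main start, except that of Psmb8, which ends 70 bases upstream of it, where an exon of another transcript begins. Capitals mark bases in a footprint of both libraries.
Psmb3 (chr11:97703249-97703398, plus strand): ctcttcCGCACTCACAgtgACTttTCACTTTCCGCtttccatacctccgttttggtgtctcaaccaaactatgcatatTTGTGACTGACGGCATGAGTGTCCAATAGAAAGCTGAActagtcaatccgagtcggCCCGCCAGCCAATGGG
Psmb2 (chr4:126677480-126677629, plus strand): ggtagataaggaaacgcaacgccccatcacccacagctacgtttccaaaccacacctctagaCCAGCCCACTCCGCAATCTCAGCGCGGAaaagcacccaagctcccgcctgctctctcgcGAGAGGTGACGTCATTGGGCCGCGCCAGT
Psmb5 (chr14:54618023-54618172, minus strand): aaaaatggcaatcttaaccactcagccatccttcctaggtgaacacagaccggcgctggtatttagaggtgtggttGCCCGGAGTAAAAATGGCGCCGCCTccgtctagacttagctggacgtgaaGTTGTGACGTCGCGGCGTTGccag
Psmb8 (chr17:34197640-34197720, plus strand): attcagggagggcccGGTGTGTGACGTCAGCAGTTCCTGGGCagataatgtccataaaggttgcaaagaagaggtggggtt
Psmd9 (chr5:123228040-123228189, plus strand): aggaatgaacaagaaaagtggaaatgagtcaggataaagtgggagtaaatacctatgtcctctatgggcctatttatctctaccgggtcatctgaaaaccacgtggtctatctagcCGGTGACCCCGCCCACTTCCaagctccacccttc
Psmb10 (chr8:105938445-105938594, minus strand): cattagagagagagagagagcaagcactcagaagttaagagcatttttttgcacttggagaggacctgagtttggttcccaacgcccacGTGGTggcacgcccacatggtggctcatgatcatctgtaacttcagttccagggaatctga

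Psmb3 had the longest protected runs of these, with 119 footprinted bases in its main window in library 1 and 142 in library 2. Its run of 39 bases in library 1 and 41 in library 2 ended 35 and 32 bases upstream of the start and covered a CCAAT box. Psmb5 had protected runs of 20 and 21 bases next to the start and of 25 and 29 bases farther upstream, in the same places in both libraries. Psmb10 had 29 and 15 footprinted bases, among the fewest of the open genes, although 10 and 8 footprints lay in the windows of all its starts. The start region of Psmb10 therefore held few protected bases, and its peak across the start was low too, at 0.606 and 0.888.

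By the strongest peak of each gene, the promoters of the 19S cap had the highest median of the particle, 5.33 over its 17 genes. With all peaks of a window summed, its other subunits stayed highest at 5.60. Its ATPases, at 4.88, then lay below the activators at 5.53 and the assembly factors at 5.01. Overlapping peaks were counted more than once in these sums, among them those of the assembly genes Psmg4 and Psmd5 and of the activator gene Psme3. All 6 ATPases, the ring that unfolds substrates, were open, with a median of 4.88 ± 0.126. Psmc4 had 7.16 in library 1 and 7.13 in library 2, Psmc5 6.42 and 7.38, and Psmc3 5.40 and 6.14. Psmc6 had 4.19 and 3.76, Psmc2 3.29 and 3.80, and Psmc1 2.29 and 2.32. Psmc4, Psmc5 and Psmc3 exceeded the other 3 in both libraries, and Psmc1 was the lowest open gene of the core and cap. Psmc2 and Psmc6 overlapped in their ranges.

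The 11 other cap genes were open with a median of 5.33 ± 0.461, and 8 of them lay in the highest 25% of all genes. In the base, the ubiquitin receptor gene Psmd4 had 7.19 in library 1 and 7.52 in library 2. Of the scaffold subunits of the base, Psmd2 had 5.56 and 6.76 and Psmd1 had 2.76 and 2.81. The large scaffolds therefore differed from each other by more than either differed between the libraries. In the lid, which sits over the base, Psmd3 had 5.75 and 7.66, Psmd11 5.20 and 6.01, Psmd8 5.55 and 5.65, and Psmd13 5.002 and 6.14. Psmd7 had 4.49 and 4.82, and Psmd12 3.80 and 4.90. Psmd14, the enzyme that removes the ubiquitin chain, had 3.25 and 3.18, and Psmd6 had 3.07 and 3.17. By the strongest peak, Psmd14 and Psmd6 lay below the other 6 lid genes in both libraries. That of Psmd13 was centred 392.5 bases downstream of its main start. The peak across the start of Psmd13 had 2.90 and 3.24, in library 1 below Psmd14 and Psmd6. In library 1 the medians of the 11 genes and of all 17 cap genes are the Psmd13 value of 5.002. With its peak across the start, both medians would be lower in either library. The order of the class medians by peaks across the main start was not taken.

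Factors that assemble the particle had a median of 3.79 ± 0.0308. Of the chaperones of the core, Psmg1 had 5.34 in library 1 and 5.65 in library 2, Psmg4 3.81 and 4.05, Psmg3 2.54 and 3.37, and Psmg2 1.72 and 2.44. Psmg1 acts as a pair with Psmg2, and the strongest peaks of this pair differed in both libraries by over 2-fold. The strongest peak of Psmg2 was centred 288.5 and 298.5 bases upstream of its start, in an exon of Cep76. A second peak, across the start, had 1.35 and 1.86. With these peaks summed, the means were 3.68 for Psmg2 and 5.50 for Psmg1, a gap of less than 2-fold. That sum includes the peak in Cep76. Of the chaperones of the base, Psmd9 had 6.29 and 5.56, Psmd5 4.46 and 3.77, and Psmd10, also known as gankyrin, 3.78 and 3.27. These 3 were each higher in library 1, in contrast to most proteasome genes.

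Of the activators that open the core without ubiquitin, Psme1 and Psme2 form the activator that interferon induces. Psme1 had 1.17 in library 1 and 1.37 in library 2, the lowest of all open proteasome genes, and Psme2 had 4.83 and 4.42. The strongest peak of Psme2 was centred 573.5 bases upstream of its main start. A second peak across that start had 3.86 and 3.52, so that Psme2 exceeded Psme1 also by the peak at the start. The genes lie 12727 bases apart on chromosome 14. Psme3, the nuclear activator, had 4.13 and 5.28, and Psme4, a large activator with a role in sperm development, had 3.98 and 4.73. Psmf1, an inhibitor of the core in the test tube, had 3.55 and 3.80 at a start inside the gene, 2875.5 bases downstream of its most upstream principal start in library 1 and 2855.5 in library 2, and no peak at that upstream start. The 5 open genes of this group had a median of 4.20 ± 0.311, and 3.83 when windows reached 250 bases. Psmc3ip, the gene that shares only the name, had 4.48 and 5.01.

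Library 2 gave the higher signal in 36 of the 47 open proteasome genes, and in 68.1% of all open genes. The median log2 ratio of library 2 over library 1 was 0.15 for the proteasome genes and 0.11 for all open genes, with an SD over genes of 0.18 and 0.28. Depth and scaling were not known for either library, so their part in this shift was not tested. A log2 ratio of 0.4 or more in size was found in 3 proteasome genes, a count that was not taken over all open genes. They were Psmg2 at 0.50, Psmd3 at 0.41 and Psmg3 at 0.41, and all were higher in library 2. Over the 47 genes the libraries correlated with a Spearman rho of 0.941, and over all 13956 open genes with 0.978, given as a description, since the genes share the libraries.

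Proteasome promoters were mostly rich in CpG, the dinucleotide that marks broadly used promoters. A CpG observed over expected ratio of at least 0.6 in the main window was found in 40 of the 50 genes, beside 47.5% of all protein-coding genes. All 14 genes of the 20S core and all 17 of the 19S cap passed it. The 10 below it were Psmb8 (0.580), Psmb10 (0.265), Psme1 (0.403), Psme2 (0.430), Psme2b (0.236), Psma8 (0.564), Psmb11 (0.393), Psmd10 (0.425), Psmf1 (0.158) and Psmg4 (0.595). They included both tissue-specific core genes, no standard subunit of core or cap, and of the 5 genes that interferon induces all but Psmb9. The value of Psmf1 belongs to its upstream start, which was closed.

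All 40 proteasome genes with a CpG-rich window were open, as were 95% of all genes with one, and their median signal was 4.68 ± 0.292, where all such genes had 3.98 ± 0.272. Among genes without a CpG-rich window, 7 of 10 proteasome genes were open, beside 35.2% of all, with medians of 3.41 ± 0.201 and 1.79 ± 0.191. CpG was taken in the main window, while open state and signal refer to any start. For Psmf1 and Psmb10 the strongest peak lay outside the main window. In that window Psmf1 had no peak, and Psmb10 had 0.606 in library 1 and 1.15 in library 2. The library 1 median of the open genes without a CpG-rich window, 3.55, is the value of Psmf1. For CpG-rich promoters the share of open proteasome genes was thus close to its background, while 3 of the 10 others were closed in at least 1 library.

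**Figure D3:**
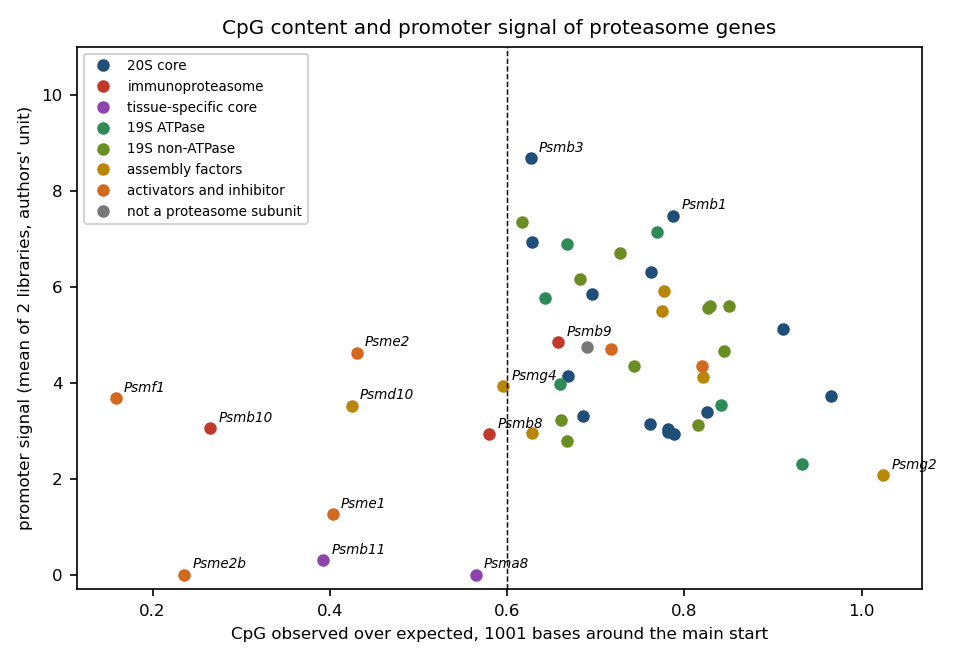
CpG observed over expected within 500 bases of the main start (horizontal axis) and promoter signal (mean of both libraries, authors' unit, vertical axis) for each proteasome gene, coloured by particle. The dashed line marks 0.6, and the 10 genes to its left include Psmb10, Psme1, Psmb11 and Psme2b, all with a signal under 3.30. The signal is that of any start, and for Psmb1, Psmb10 and Psmf1 its peak lay outside the main window.

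Another protein-coding gene started in the window of 13 of 50 proteasome genes, or 26%, beside 13.2% of all protein-coding genes. In 12 of the 13 the partner ran in the opposite direction, a share not taken over all genes with a neighbouring start. Of these partners, 6 started within 100 bases of the main start, likewise without a background. They were Mrpl32, a mitochondrial ribosomal protein gene 75 bases from Psma2, Ss18l1, a chromatin cofactor of neurons 76 bases from Psma7, Tap1 at Psmb9, Dnajc2 32 bases from Psmc2, Ftsj3 75 bases from Psmc5, and Sirt3, a mitochondrial deacetylase 99 bases from Psmd13. A peak there cannot be assigned to either gene of a pair. The partners elsewhere were AY074887 at Psma4, Tbp at Psmb1, Htr2b at Psmd1, Cutal at Psmd5, Atg4a at Psmd10, Cep76 at Psmg2 and, on the same strand, Gm26938 at Psmg3. At Psmb1 the strongest peak lay 1572.5 bases upstream of the main start in library 1 and 1582.5 in library 2, at an upstream start near that of Tbp, the TATA-binding protein, while the peak across the main start had 5.21 and 5.27. All 13 proteasome genes with a neighbouring start were open, beside 91.1% of all genes with one. These 13 had a median signal of 3.79 ± 0.0146 and the other 34 open genes 4.54 ± 0.326. Over all protein-coding genes the order was the other way round, with 4.68 ± 0.191 for genes with a neighbouring start and 2.94 ± 0.253 for the rest.

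For 31 of the 47 open genes the strongest peak was centred within 100 bases of the main start in both libraries, and for 39 within 200 bases. In 3 genes, Psmb1, Psmb10 and Psmf1, it lay outside the main window. The same shares were not taken over all open genes, so these counts describe the proteasome genes only. Psmb5 and Psmb11, whose starts lie 7288 bases apart on chromosome 14, did not share a peak. Strongest peaks had a median width of 220 bases in either library, beside 240 bases over all open genes.

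The per-base lists of the authors gave a false discovery rate under 0.05 to a median of 758 bases of the main window of open proteasome genes in library 1 and 790 in library 2, beside 733.5 and 800 bases over all open genes. By this measure, the breadth of open chromatin around the start was close to that of other open genes. Proteasome genes with a CpG-rich window had 764 and 809.5 bases, fewer than the 812 and 869 over open CpG-rich genes.

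At least 1 footprint in both libraries was found in 47 of 50 proteasome genes, or 94%, beside 61.5% of all protein-coding genes. The main windows held 246 footprints in library 1 and 291 in library 2, with median widths of 12 and 11 bases. Of the footprints at proteasome genes 77.6% in library 1 and 64.3% in library 2 overlapped one of the other library, while over the main windows of all genes 68.1% and 57.7% did. Median counts per gene were 5 and 6, beside 3 and 4 over all genes. Restricted to open genes they were 6 in both libraries, beside 6 and 7, so open proteasome promoters held about as many footprints as other open promoters. Over the windows of all starts, Psmb1 had 10 in both libraries, Psma7 had 7 and 11, Psmg2 had 8 and 10, and Psmb10 had 10 and 8, the highest counts of the proteasome genes. Psmd3 had the most footprinted bases in its main window, 139 in library 1 and 169 in library 2.

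The protected bases of proteasome genes lay closer to the start. Of their footprints 61.4% in library 1 and 58.4% in library 2 were centred within 100 bases of the main start, beside 48.6% and 45.9% over all genes. In the 20 bases just upstream of the start, 35.9% and 39.8% of bases of open proteasome genes were in a footprint, beside 23.5% and 25.0% of bases of all open genes. Between 40 and 60 bases downstream these shares were 26.7% and 25.6%, beside 13.3% and 15.0%. In the 20 bases centred 130 bases downstream they were 4.04% and 3.19%, beside 4.63% and 6.21%, below those of all open genes. Open proteasome genes had a median of 80 and 89 footprinted bases per main window, beside 66 and 76 over all open genes and 79 and 90 over open CpG-rich genes. The proteasome genes with a CpG-rich window had 83.5 and 94.5, a smaller difference from the CpG-rich genes than that between the open sets.

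**Figure D4:**
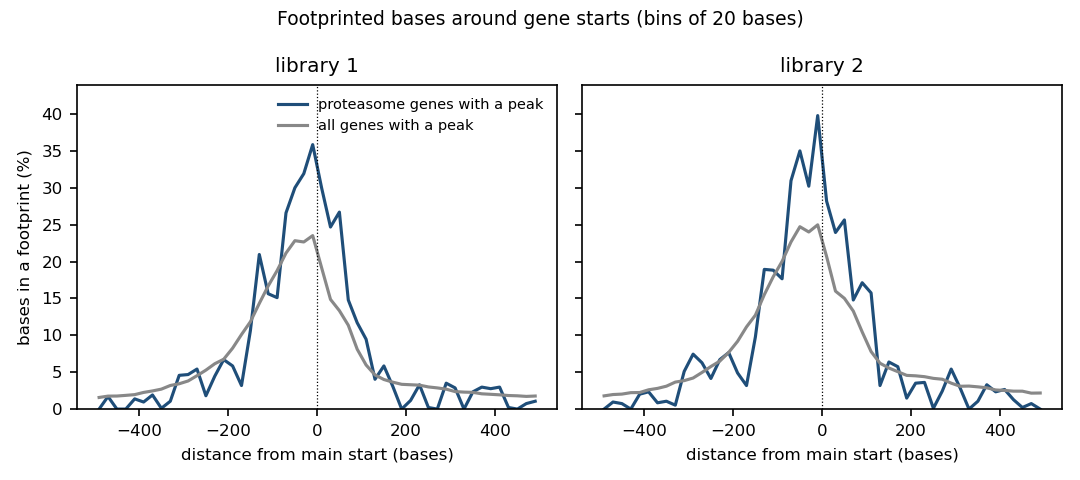
Share of bases in a footprint (percent, vertical axis) by distance from the main start (bases, horizontal axis, bins of 20 bases) in library 1 (left) and library 2 (right), for the 47 open proteasome genes (blue) and all 13956 open protein-coding genes (grey). The blue curve peaks just upstream of the start, at 35.9% and 39.8%, and stands above the grey one in each bin centred between 70 bases upstream and 110 bases downstream of the start in both libraries, but below it in others, such as that centred 90 bases upstream.

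Letters of known factor motifs were sought on both strands of the main window, and a match counted as protected where its middle lay in a footprint of both libraries. A match describes the letters and shows neither a bound factor nor a cause. The consensus letters were TGACNNNGC for the antioxidant response element, CCGGAAG for ETS factors, GGGCGG for Sp and Klf factors, CCAAT for NF-Y, AAGATGGC for YY1, CGCATGCG for nuclear respiratory factor, TGACGTCA for CREB and ATF factors, and AAANNGAAA for interferon-stimulated elements.

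The antioxidant response element, the site through which Nfe2l1 acts on proteasome genes, had a match in 27 of 50 windows, or 54%, while 33.5% of windows of all protein-coding genes held one. Of the 38 matches, 5 overlapped a match to the AP-1 letters TGAGTCA and 1 a match to the Sp and Klf letters. The overlap with Sp and Klf letters is at the Psmd9 site described next, where both matches were protected. A protected match was found in 2 genes, Psmb5 and Psmd9, or 4%, where the background was 2.28% of all protein-coding genes and 4.35% of those with a CpG-rich window, so the share was near that of CpG-rich genes. These matches end 12 bases upstream of the start in Psmb5 and 23 bases upstream in Psmd9. These sites are printed with capitals on the consensus.
Psmb5 (chr14:54618024-54618052, minus strand): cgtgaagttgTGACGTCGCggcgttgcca
Psmd9 (chr5:123228149-123228177, plus strand): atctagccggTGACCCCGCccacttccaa

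The ETS letters were present in 26 windows, or 52%, beside 19.5% of all windows, and the YY1 letters in 11, or 22%, beside 7.69%. Of the 33 ETS matches, 2 overlapped Sp and Klf letters and 1 a heat shock element. Protected ETS matches were found in 6 genes, or 12%, beside 3.53% of all protein-coding genes and 6.82% of those with a CpG-rich window. The 6 were Psma6 of the core, Psmc6 and Psmd14 of the cap, the activators Psme3 and Psme4, and Psmc3ip. Protected YY1 matches were found in 2 genes, or 4%, beside 1.1% of all protein-coding genes and 2.09% of those with a CpG-rich window. By library 2 alone they were found in 4, beside 376 of all 21938 protein-coding genes. The YY1 match of Psmc5 stood in exon sequence just downstream of the start and that of Psmd7 upstream of its start. The ETS matches of Psmc6 and Psmd14, then the YY1 matches, are shown with the consensus in capitals.
Psmc6 (chr14:45329714-45329740, plus strand): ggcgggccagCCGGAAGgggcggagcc
Psmd14 (chr2:61711731-61711757, plus strand): agccgggaacCCGGAAGtacttctctg
Psmc5 (chr11:106256178-106256205, plus strand): cgagagagggAAGATGGCgcttgatggg
Psmd7 (chr8:107588519-107588546, minus strand): tccctttctcAAGATGGCgcccctggcg

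The Sp and Klf letters were the most frequent, with a match in 39 windows, or 78%, beside 61.7%. They were protected in 25 genes, or 50%, beside 26.5% of all protein-coding genes and 48.9% of those with a CpG-rich window. The share in proteasome genes was near that of CpG-rich genes. Psma7 and Psmc6 held 3 protected matches each. The CCAAT letters were present in 31 windows, or 62%, beside 70.1%, and protected in 6 genes, or 12%, beside 4.97% of all protein-coding genes and 8.87% of those with a CpG-rich window. The 6 were Psmb3 with 2 matches, Psmb2, Psma3, Psmd4, Psme3 and Psmc3ip. Psmb3, Psmb2 and Psmd4 had high mean signals of 8.68, 6.94 and 7.36. Psma3, Psme3 and Psmc3ip had 3.39, 4.71 and 4.74. Psmc4 and Psmc5, with means of 7.14 and 6.90, held no protected CCAAT match. In the stretch of Psmb3 above, both CCAAT boxes fall in capitals.

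The letters for nuclear respiratory factor, an activator of genes for mitochondrial proteins, were protected in 2 genes, or 4%, beside 2.48% of all protein-coding genes and 4.68% of those with a CpG-rich window. They lay upstream of Psma2, in the exon of its mitochondrial ribosomal partner Mrpl32, and in exon sequence just downstream of the start of the chaperone gene Psmg1.
Psma2 (chr13:14613106-14613133, plus strand): gcccctcttgCGCATGCGcaagggtcaa
Psmg1 (chr16:95990909-95990936, minus strand): cgggccggcgCGCATGCGctgtctggcc

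The CREB and ATF letters were protected in both genes that hold them, Psmb2 and Psmb8, or 4%, beside 2.04% of all protein-coding genes and 3.79% of those with a CpG-rich window. In Psmb2 the match runs into a CCAAT box on the other strand, read as ATTGG, and in Psmb8 it lies in the long run of capitals in the stretch above. The interferon-stimulated letters were present in 19 windows, or 38%, beside 31.5%. They were protected in 2 genes, or 4%, beside 0.333% of all protein-coding genes and 0.624% of those with a CpG-rich window. These were Psmb3 and Psmd11, not immunoproteasome genes. Psmb8, Psmb9, Psmb10, Psme1 and Psme2 held the letters too, but not protected. The E-box letters CACGTG were protected in Psmb10 alone, beside 2.27%, at the edge of the short run of capitals in its stretch above. No match protected in both libraries was found in proteasome genes for the letters of ZNF143 (ACTACAATT, 0.16% of all protein-coding genes), the heat shock element (TTCNNGAA, 0.315%), NF-kB (GGGANNTCC, 0.556%) and AP-1 (0.0684%). The site of Psmd11 is shown with the consensus, read on the other strand, in capitals.
Psmd11 (chr11:80428435-80428463, plus strand): tggggattaaTTTCGGTTTgtctcttcag

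Genes that work with the proteasome but fall outside the name rule were open without exception among those tested. All 10 partners of the particle found in the annotation had a promoter peak in both libraries, where 63.6% of all protein-coding genes did, with a median signal of 6.41. The highest was Ube3c, a ubiquitin ligase of the proteasome, with 7.69 in library 1 and 8.81 in library 2, and the lowest Ecpas, an adaptor of the particle, with 1.66 and 2.28. Adrm1, another ubiquitin receptor of the cap, had 7.07 and 7.68, close to Psmd4. All 10 genes of the Nfe2l1 pathway were open, with a median of 3.58. Nfe2l1 itself had 8.25 and 7.75, the highest of that list, and its relative Nfe2l2, the responder to oxidative stress, had 2.01 and 1.68. Keap1, which holds Nfe2l2 back, had 1.68 and 1.86, the lowest mean of the list, though in library 2 Nfe2l2 was lower.

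All 14 genes that supply ubiquitin or deliver substrates were open, with a median of 3.83. The shuttle gene Rad23b had 10.5 and 11.8 and Ubqln2, another shuttle, 1.80 and 1.89. The genes of antigen presentation and the interferon response, 10 of 10 open, had the lowest median of the 4 lists, 2.76. Tapbp, which loads peptides, had 5.16 and 6.15, and Nlrc5, an activator of class I genes, 0.926 and 1.21. These list medians, like the immunoproteasome median of 3.06 ± 0.221, rest on the strongest peak of each gene.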

How the data were processed

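DNase-seq peaks, footprints and per-base cut rates of left cerebral cortex were used from 2 libraries of 1 group. Per the deposited readme, the authors called peaks per library from its own alignments to mm10, without pooling. The aligner and the callers, not given in the sources used here, are left unnamed. Each peak's signal value was used as deposited by the authors, and its normalization was not stated. All signals were whole multiples of a library's own step (0.00681 in library 1 and 0.00617 in library 2, within 0.05 of a step), while the number of reads behind a step is unknown. The authors' footprints carry a q-value (FDR) of 0.01 in every line, and their cut-rate lists give the FDR of runs of bases under 0.05. The longer of the 2 peak lists of each library was used.

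Genes, starts and exons came from GENCODE M21, and sequence from the RefSeq copy of GRCm38, whose promoter table matched the extracted sequence in 45 of 45 entries for 42 of the genes. A peak or footprint counted from an overlap of 1 base. The main start was that of the transcript ranked principal by APPRIS, taking the start most such transcripts share and then the most upstream. Genes of a class of at most 7 are named with all values, as are those with extreme signals, ratios or footprint counts. All members were measured, and in the pathway lists the highest and lowest genes were named, with Adrm1 and Nfe2l2 named after their values were seen. Paaf1, on the list of partners, was not matched to the annotation. The members and lists were chosen with earlier results of these data known. No test was made, since there is 1 group and genes are not replicates. The interval given covers counting only. The result for 1 further motif is not reported here. Overlap and coverage functions were tested on simulated data. Alternative windows, peak lists, starts and thresholds, and each library by itself, were tried. Computation used pandas 2.3.3, numpy 2.4.6, matplotlib 3.10.9, scipy 1.17.1 and pyarrow 21.0.0 under Python 3.11.15.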

Additional observations from a re-analysis of the deposited data

How the results depend on the processing

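The count of 47 open proteasome genes stayed between 47 and 48 under every alternative tried, while that of all protein-coding genes ran between 13058 and 14579. Of the values of the main results under alternatives, 159 stayed within the spread between libraries (for counts, within 1.5 times) and 25 moved. No sign was reversed, but summing peaks changed the order of the class medians. With windows of 250 bases, and likewise with peaks required to have their midpoint in the window, the median signal of the proteasome genes was 4.12 and that of the activators and inhibitor 3.83. With all peaks of a window summed, the medians were 5.41 for the proteasome genes and 4.31 for all protein-coding genes. By class they were 4.81 for the 20S core, 4.84 for the immunoproteasome, 5.01 for the assembly factors and 5.53 for the activators and inhibitor. The immunoproteasome and the assembly factors thus passed the 20S core. Some listed peaks overlap, however, and the sum counted their shared bases more than once. This was so at Psmg4 in both libraries, at Psmd5 and Psmb10 in library 2 and at Psme3 in library 1. The places of the assembly factors and of the activators and inhibitor by this sum therefore do not rest on separate peaks. With windows of 1000 bases the median footprint count per window was 6.25. With an FDR under 0.001 the median number of cut-rate bases, over the windows of all starts of all 50 genes, was 670. In the main windows of open proteasome genes that number was 643 in library 1 and 682 in library 2. When a match anywhere in a promoter peak counted, members with a match were 12 for the antioxidant response element, 20 for ETS, 13 for NF-Y, 5 each for YY1, E-box and heat shock element, 6 for the interferon-stimulated element and 1 each for NF-kB and AP-1, since that rule does not ask for a footprint. Without replicate 1 or without replicate 2, protected matches were found in 2 to 4 genes for YY1, 1 to 2 for E-box and 1 for the heat shock element, since a single library sufficed. Over all 21938 protein-coding genes, library 1 and library 2 gave 306 and 376 for YY1. For E-box they gave 655 and 705, and for the heat shock element 131 and 144. Among single genes, Psmb10 moved by over 1.5 times when only starts of protein-coding transcripts were used, Psmb11 when either library was left out or the shorter peak list was used, and 9 genes when peaks were summed. No paired analysis was possible because there is only 1 group. Depth was unknown, so the smallest detectable peak could not be given, and a closed promoter here means that no peak was called. Whether reads that fit both Psme2 and Psme2b were kept was not given in the sources used here.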
